A study of Mus musculus with 6 samples.

Results

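The titin-linked ankyrin repeat and stretch-response genes were taken as 10 genes by name: the muscle ankyrin repeat genes Ankrd1, Ankrd2 and Ankrd23, the Xin genes Xirp1 and Xirp2, the LIM protein genes Csrp3, Fhl1 and Fhl3, the nebulin-related gene Nrap, and Mustn1. All 10 were found by Ensembl identifier among the 49315 genes of the count tables, and all 10 passed the filter on low counts that left 16650 genes for testing. There were 3 libraries labelled mKO, from the gastrocnemius (the large calf muscle) of mice with a muscle-specific knockout of Hnrnpu, set against 3 libraries labelled WT. All mice were 3 months old and of a mixed C57BL/6 129 strain. The Cre driver, the deleted exons and any alleles that the WT mice carry are not stated in these sources. The replicates are numbered without naming animals, so tests measure the spread between these libraries. Since the 10 genes were picked with the mKO against WT differences known, and no numerical threshold was stated, their differences are given as a description without p-values.

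As background, titin is the giant elastic filament of the sarcomere, and the muscle ankyrin repeat proteins bind its spring-like I-band region at a site called N2A. They also enter the nucleus, and they are known for transcripts that respond to stretch, injury and denervation. Muscle LIM protein, the Xin proteins and Nrap sit at Z-discs, at the ends of myofibrils or at sites of sarcomere damage, and link actin filaments to adhesion and signalling proteins.

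The libraries held 32108684 to 42344238 counts. Levels are CPM, counts scaled to a common library size adjusted by the trimmed mean of M-values (TMM), and log2 fold changes are mKO over WT with a standard error (SE) from edgeR. Hnrnpu averaged 208 ± 2.92 CPM in mKO and 239 ± 7.59 CPM in WT (SD, n = 3 each), and its log2 difference of -0.20 did not pass (SE 0.10, edgeR adjusted p = 0.147); its groups did not overlap. With unscaled library totals the sign turned and Hnrnpu passed as higher (log2 0.27, edgeR adjusted p = 0.0402). A count over all exons does not check a deletion of some of them, so directions are those of the libraries as labelled. The summed level of 8 skeletal muscle fibre genes, which define the labelled tissue, was 47330 to 55218 CPM in mKO and 110110 to 130170 CPM in WT libraries, and all 8 were detected, with 7 passing as lower. In whole muscle, fewer cells of a type and less RNA per cell cannot be told apart.

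Of the 10 genes, 5 were higher and 2 lower in mKO at an edgeR adjusted p under 0.05, and 6 had groups that did not overlap. Over all genes tested, 37.0% passed, 18.2% as higher and 18.9% as lower, and 49.3% had groups that did not overlap. Ankrd1, Mustn1, Xirp1, Csrp3 and Ankrd2 were the higher ones, Ankrd23 and Xirp2 the lower ones, and Nrap, Fhl1 and Fhl3 did not pass. The median log2 difference of the 10 was 0.38, beside 0.02 over all genes tested. Because the genes were picked on this contrast, nothing is read from these counts.

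**Figure D1:**
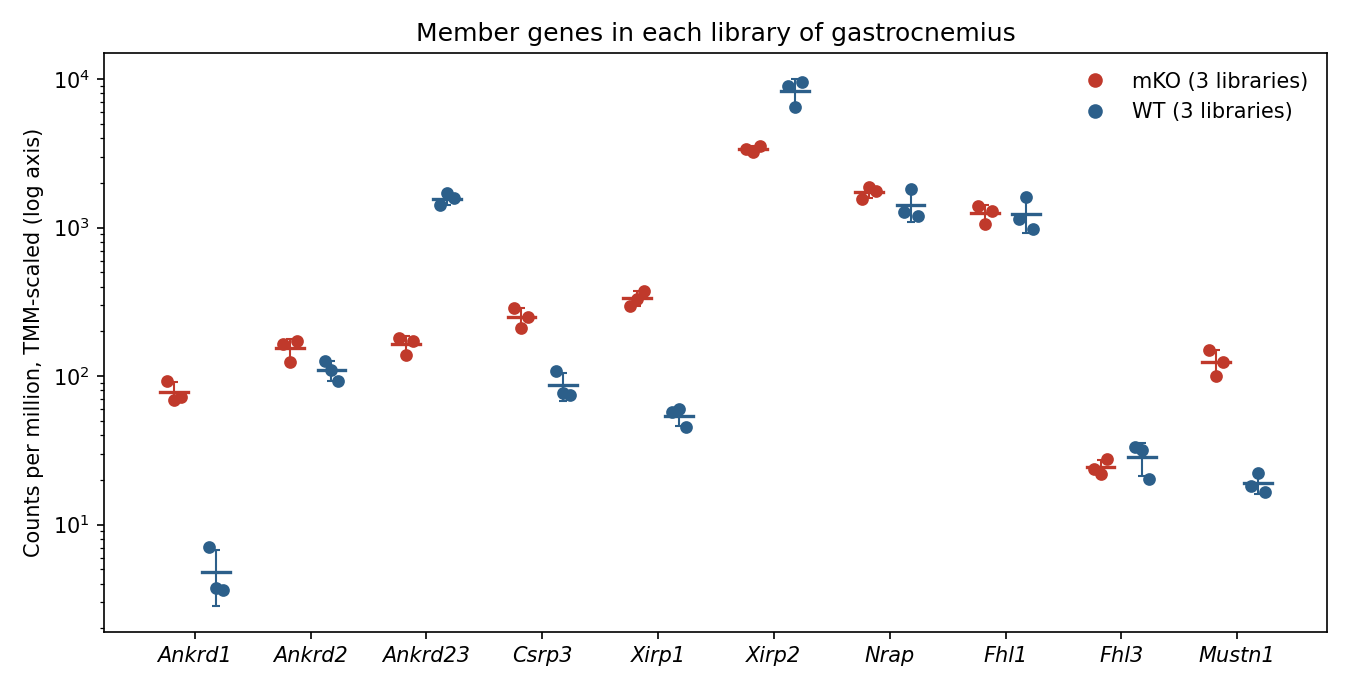
Level of each of the 10 genes in every library, in TMM-scaled CPM on a log axis, with mKO libraries in red left of WT libraries in blue; horizontal lines are means and bars are SD (n = 3). Ankrd1, Csrp3, Xirp1 and Mustn1 sit higher in all mKO libraries, Ankrd23 and Xirp2 sit lower in all of them, and the other 4 overlap.

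The 3 muscle ankyrin repeat genes moved apart. Ankrd1 encodes the cardiac ankyrin repeat protein, a transcript scarce in healthy limb muscle (ENSMUSG00000024803, minus strand of chromosome 19, 36111965 to 36119844 in GRCm38). It had 92.7, 69.3 and 72.7 CPM in mKO replicates 1 to 3, against 7.05, 3.74 and 3.61 CPM in WT replicates 1 to 3. Every mKO library was far above every WT library, and WT replicate 1 stood above the other WT libraries. The log2 fold change was 4.04 (SE 0.23), a 16.4-fold rise.

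Ankrd23, whose protein shares the titin-binding site, went the other way (ENSMUSG00000067653, minus strand of chromosome 1, 36530188 to 36536883). It had 180, 139 and 173 CPM in mKO replicates 1 to 3, against 1412, 1699 and 1585 CPM in WT replicates 1 to 3. The groups were far apart, and the spread within each was small, with a coefficient of variation of 13.5% in mKO and 9.23% in WT. Ankrd23 fell by 3.26 on the log2 scale (SE 0.14), so mKO libraries kept 10.5% of the WT level.

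Ankrd2, the relative that is most abundant in slow fibres, differed least (ENSMUSG00000025172, plus strand of chromosome 19, 42036038 to 42045110). It had 165, 125 and 171 CPM in mKO replicates 1 to 3, against 126, 110 and 92.2 CPM in WT replicates 1 to 3. The groups overlapped, since mKO replicate 2 lay just below WT replicate 1. The log2 fold change of 0.49 (SE 0.15) was past the threshold, but not without mKO replicate 1 (0.44), mKO replicate 3 (0.41) or WT replicate 3 (0.38).

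Most exon bases of Ankrd23 are also assigned to another gene. Of its 2697 exon bases, 2109 (78.2%) are also listed as exons of Gm42417, an annotated gene on the same strand that spans 36530193 to 36539429 and reaches past Ankrd23 into the span of Ankrd39. Gm42417 had 0, 7 and 3 counts in mKO replicates 1 to 3, and 21, 19 and 21 counts in WT replicates 1 to 3. Reads in the shared bases were therefore not counted for both genes, and whether they were dropped is not given in the sources used here. If they were dropped, all Ankrd23 counts came from the other 588 bases, and its level per length is understated in both groups. The length cancels in the fold change, but the fold change would then describe those 588 bases only. Whether use of the Ankrd23 exons differed between groups was not tested.

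Levels of different genes were compared per exon length, as RPKM (CPM divided by exon length in kilobases). With all exon bases, the 3 ankyrin repeat genes summed to 205 to 269 RPKM in mKO and 642 to 732 RPKM in WT libraries. Ankrd23 made up 24.6 to 25.1% of that sum in mKO and 81.5 to 87.3% in WT. Ankrd2 made up 55.7 to 59.7% in mKO and 12.4 to 17.9% in WT, and Ankrd1 15.8 to 19.5% in mKO and 0.289 to 0.622% in WT. Which gene led in mKO depended on the length of Ankrd23: with only its 588 unshared bases, Ankrd23 still made up 59.9 to 60.6% in mKO, against 95.3 to 96.9% in WT. Under both lengths the share of Ankrd23 was lower, and those of Ankrd1 and Ankrd2 higher, in every mKO library than in any WT library. Since shares are parts of the same sum, a lower Ankrd23 by itself raises those of the others. The level of Ankrd2 overlapped between groups, at 114 to 156 RPKM in mKO and 83.8 to 115 RPKM in WT libraries.

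**Figure D2:**
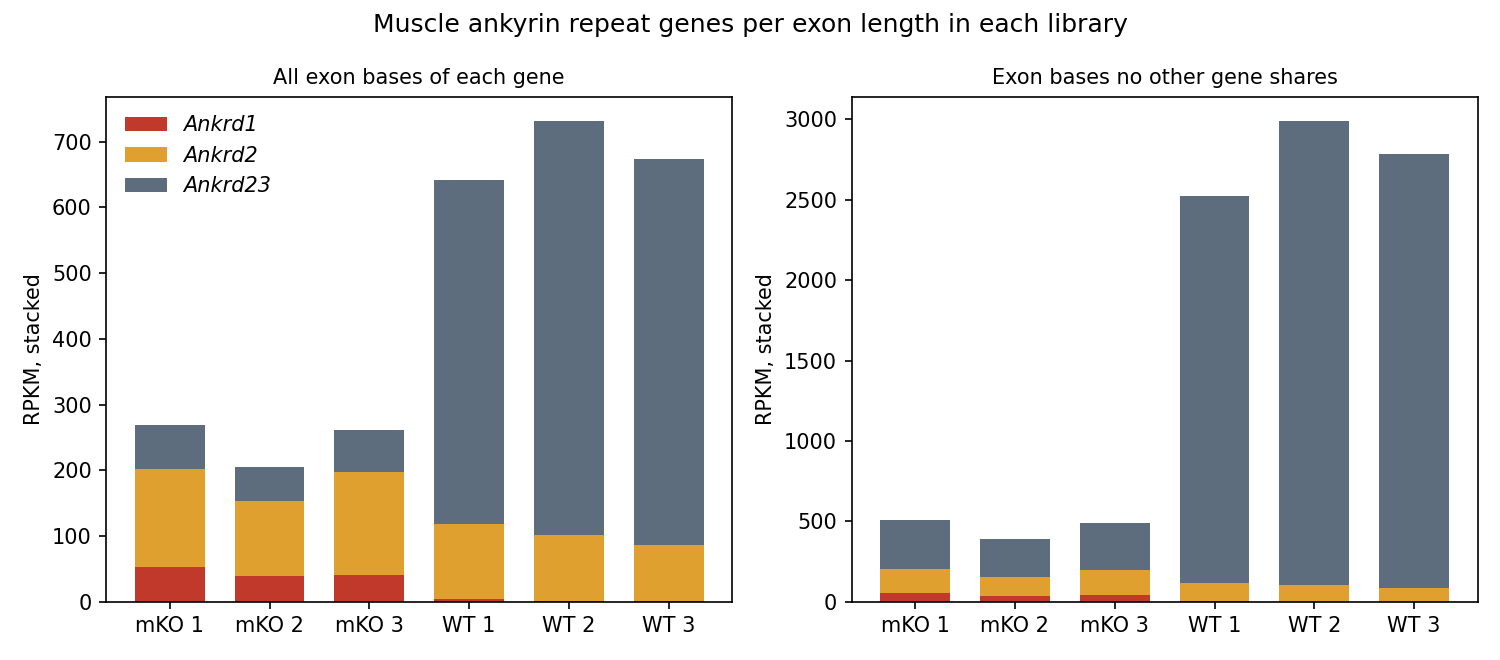
Stacked RPKM of Ankrd1, Ankrd2 and Ankrd23 in each library, mKO on the left, computed with all exon bases (left panel, sums of 205 to 269 in mKO and 642 to 732 in WT) and with only exon bases that no other gene shares (right panel). Ankrd23 fills most of every WT bar in both panels, and its part of the mKO bars is larger in the right panel.

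The start sites of the muscle ankyrin repeat genes and of Xirp2 are shown because these genes took opposite directions in mKO. The windows are the 250 bases before the RefSeq start site in GRCm38.p6, read 5′ to 3′ on the strand of the gene; both Ankrd23 windows lie inside the span of the gene in the count tables. Capitals mark matches on either strand to any of 5 motifs. The muscle CAT motif, bound by TEAD factors, was searched as CATTCC and is called MCAT here. The E-box of myogenic factors was searched as CANNTG, and the box near many start sites as TATAAA. The CArG box of serum response factor and the MEF2 site were searched as well.
Ankrd1, chr19:36119845-36120094, minus strand: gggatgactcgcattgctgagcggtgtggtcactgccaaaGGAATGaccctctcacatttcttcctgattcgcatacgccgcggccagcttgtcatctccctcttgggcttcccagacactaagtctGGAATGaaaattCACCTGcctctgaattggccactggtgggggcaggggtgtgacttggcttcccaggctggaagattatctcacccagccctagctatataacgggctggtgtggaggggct
Ankrd2, chr19:42035777-42036026, plus strand: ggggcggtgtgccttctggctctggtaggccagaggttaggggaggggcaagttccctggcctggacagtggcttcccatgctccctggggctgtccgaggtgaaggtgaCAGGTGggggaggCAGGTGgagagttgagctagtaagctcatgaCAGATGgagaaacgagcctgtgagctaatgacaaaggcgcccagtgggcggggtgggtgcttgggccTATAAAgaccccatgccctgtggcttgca
Ankrd23, upstream start site, chr1:36536557-36536806, minus strand: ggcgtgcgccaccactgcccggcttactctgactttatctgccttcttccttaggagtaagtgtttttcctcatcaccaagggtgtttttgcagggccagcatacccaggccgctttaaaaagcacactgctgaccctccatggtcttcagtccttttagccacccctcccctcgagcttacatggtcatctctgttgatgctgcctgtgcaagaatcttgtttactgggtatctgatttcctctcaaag
Ankrd23, downstream start site, chr1:36535740-36535989, minus strand: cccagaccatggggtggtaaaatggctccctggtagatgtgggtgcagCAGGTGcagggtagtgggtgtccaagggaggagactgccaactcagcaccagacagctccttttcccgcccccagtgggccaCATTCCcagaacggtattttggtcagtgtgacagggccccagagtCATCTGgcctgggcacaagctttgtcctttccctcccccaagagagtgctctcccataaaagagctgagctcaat
Xirp2, chr2:67445752-67446001, plus strand: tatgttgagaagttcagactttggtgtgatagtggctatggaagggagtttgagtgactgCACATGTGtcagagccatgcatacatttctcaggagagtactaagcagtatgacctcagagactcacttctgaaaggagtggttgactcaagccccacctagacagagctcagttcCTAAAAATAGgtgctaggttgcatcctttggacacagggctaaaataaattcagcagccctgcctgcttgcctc
The Ankrd1 window held 2 MCAT matches, whose edges nearest the start site lie 204 and 117 bases before it, and 1 E-box. The Ankrd2 window held 3 E-boxes and a TATA match 23 bases before the start site. Of the 2 Ankrd23 windows, the upstream one held no match and the downstream one held 1 MCAT match and 2 E-boxes. Xirp2 had 1 MEF2 match 64 bases before its start site and 2 E-boxes that overlap each other. MCAT stood in 12.6% of 32851 such windows of all genes, E-box in 66.2%, TATA in 12.4%, CArG in 1.47% and MEF2 in 0.508%. RefSeq windows were at hand for 9 of the 10 genes, 12 windows in all, of which 2 held MCAT, 9 an E-box, 2 TATA, 1 CArG (Fhl1) and 1 MEF2 (Xirp2). Such matches describe letters in a window and are not binding sites.

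The 2 Xin genes also went opposite ways. Xirp1 encodes Xin, an actin-binding repeat protein found in damaged and regenerating fibres (ENSMUSG00000079243, minus strand of chromosome 9, 120013755 to 120023598). It had 299, 333 and 373 CPM in mKO replicates 1 to 3, against 57.0, 60.1 and 45.4 CPM in WT replicates 1 to 3. The groups did not overlap, and the log2 fold change was 2.63 (SE 0.14), a 6.18-fold rise.

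Xirp2, the larger Xin relative of mature muscle, is the most highly counted of the 10 (ENSMUSG00000027022, plus strand of chromosome 2, 67446002 to 67526614). It had 3378, 3211 and 3528 CPM in mKO replicates 1 to 3, against 8970, 6517 and 9555 CPM in WT replicates 1 to 3. The mKO libraries lay close together, with a coefficient of variation of 4.70%, while WT libraries spread by 19.3%. Xirp2 fell by 1.31 on the log2 scale (SE 0.15), 2.48-fold lower. Per exon length, the ratio of Xirp1 to Xirp2 was 0.204 ± 0.0193 in mKO and 0.0139 ± 0.00464 in WT (SD, n = 3 each), so Xirp2 remained the more abundant in every library of both groups.

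Csrp3 and Mustn1 were both higher in mKO. Csrp3 encodes muscle LIM protein, a Z-disc protein enriched in slow fibres and heart (ENSMUSG00000030470, minus strand of chromosome 7, 48830398 to 48848033). It had 285, 212 and 251 CPM in mKO replicates 1 to 3, against 108, 76.8 and 74.6 CPM in WT replicates 1 to 3. Groups did not overlap, WT replicate 1 was the highest WT library as for Ankrd1, and the log2 fold change was 1.53 (SE 0.16).

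Mustn1 encodes a small musculoskeletal nuclear protein linked to muscle and cartilage regeneration (ENSMUSG00000042485, plus strand of chromosome 14, 30879257 to 30881608). It had 151, 100 and 125 CPM in mKO replicates 1 to 3, against 18.1, 22.3 and 16.6 CPM in WT replicates 1 to 3. Groups were well apart, with a log2 fold change of 2.72 (SE 0.17), a 6.59-fold rise. Among the 10 genes the profiles of Mustn1 and Xirp1 were closest, with a root mean square difference of 0.24 in log2 CPM over the 6 libraries after subtraction of the WT mean. This value largely restates their near log2 fold changes (2.72 and 2.63). Within mKO the libraries were ordered differently: Mustn1 was highest in replicate 1 and Xirp1 in replicate 3.

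Nrap and the LIM-only genes Fhl1 and Fhl3 did not pass the threshold. Nrap, which anchors actin at myofibril ends and acts in myofibril assembly (ENSMUSG00000049134, minus strand of chromosome 19, 56320035 to 56390037), had 1565, 1871 and 1762 CPM in mKO, against 1272, 1815 and 1200 CPM in WT replicates 1 to 3. WT replicate 2 lay inside the mKO range, and the log2 difference was 0.28 (SE 0.15); without WT replicate 2 it was 0.48 and passed. Fhl1, a LIM-only protein that binds titin and whose human gene underlies myopathies (ENSMUSG00000023092, chromosome X, 56731787 to 56793346), had 1394, 1062 and 1300 CPM in mKO, against 1142, 1609 and 976 CPM in WT.

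Its groups lay within each other, with a log2 difference of 0.01 (SE 0.17). Fhl3, its lower-expressed relative (ENSMUSG00000032643, chromosome 4, 124700701 to 124708611), had 23.7, 22.0 and 27.6 CPM in mKO, against 33.1, 32.0 and 20.3 CPM in WT, with WT replicate 3 below every mKO library. The log2 difference of Fhl3 was -0.22 (SE 0.17); without WT replicate 3 it was -0.42 and passed. With unscaled library totals, which moved the median of all genes to 0.49, Nrap and Fhl1 also passed as higher (0.74 and 0.48) and Fhl3 changed sign (0.24).

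**Figure D3:**
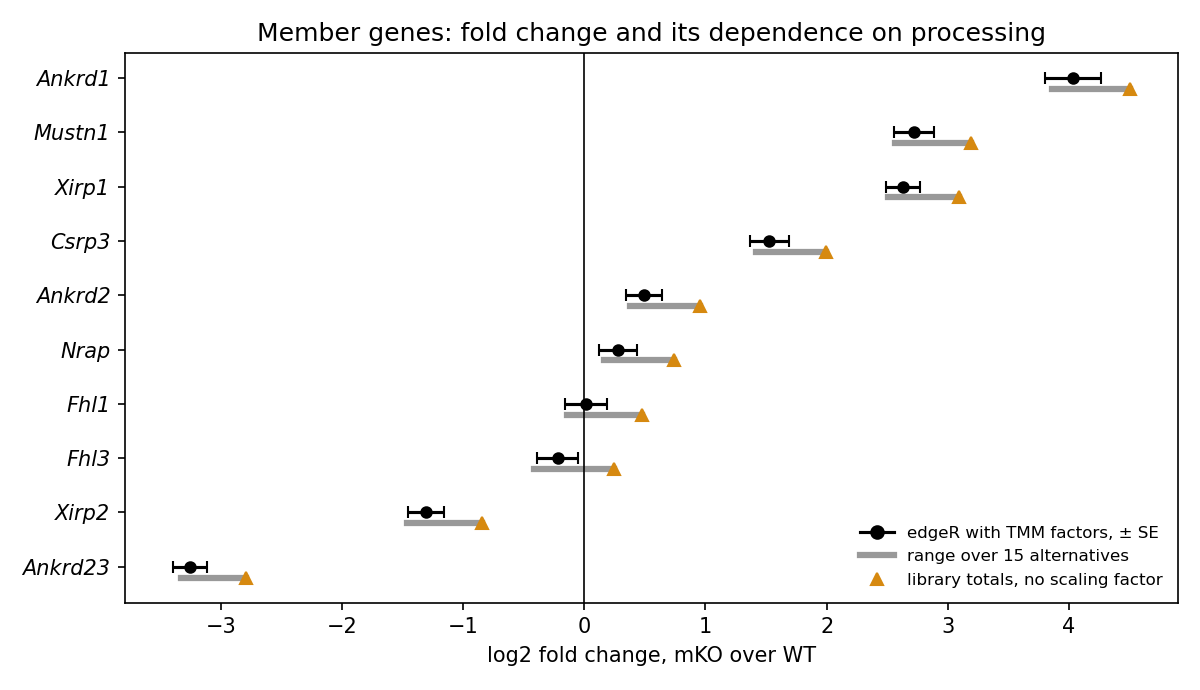
Log2 fold change of each gene, mKO over WT, with its SE (black), the range over 15 alternative settings (grey) and the value with unscaled library totals (orange triangle). Ankrd1, Mustn1, Xirp1, Csrp3, Ankrd2 and Nrap lie above 0 under the 15 alternatives, though Nrap did not pass in the main fit. Xirp2 and Ankrd23 lie below 0 under all of them, while Fhl1 and Fhl3 cross 0.

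The order of the 10 genes by RPKM, with all exon bases, differed between groups. In mKO it ran from Fhl1 (337 ± 46.1), Nrap (315 ± 28.1) and Xirp2 (282 ± 13.2) over Ankrd2 (140 ± 22.6), Mustn1 (106 ± 21.5) and Csrp3 (93.4 ± 13.8) to Ankrd23 (60.7 ± 8.21), Xirp1 (57.3 ± 6.36), Ankrd1 (44.3 ± 7.16) and Fhl3 (14.5 ± 1.73; SD, n = 3). In WT it ran from Xirp2 (697 ± 135), Ankrd23 (580 ± 53.6), Fhl1 (334 ± 88.3) and Nrap (260 ± 61.1) over Ankrd2 (99.5 ± 15.5) and Csrp3 (32.4 ± 7.08) to Fhl3 (16.9 ± 4.22), Mustn1 (16.2 ± 2.49), Xirp1 (9.27 ± 1.33) and Ankrd1 (2.72 ± 1.10; SD, n = 3). Neighbours in the order whose ranges over libraries overlapped were in mKO Fhl1, Nrap and Xirp2, then Ankrd2, Mustn1 and Csrp3, then Ankrd23, Xirp1 and Ankrd1, and in WT Xirp2 with Ankrd23, Fhl1 with Nrap, and Fhl3 with Mustn1. Within libraries, Nrap exceeded Xirp2, Ankrd2 exceeded Mustn1 and Mustn1 exceeded Csrp3 in 3 of 3 in mKO, and Fhl1 exceeded Nrap in 3 of 3 in WT. For the other overlapping neighbours the order held in 2 of 3 libraries, and they did not differ beyond their spread. With only unshared exon bases, Ankrd23 came after Nrap, Fhl1 and Xirp2 in mKO (279 RPKM) and led in WT (2662 RPKM).

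Single libraries carried part of the spread. Within mKO, replicate 2 had the lowest CPM for 8 of the 10 genes, and within WT, replicate 3 was lowest for 8 of 10. The summed level of 7 slow contractile genes was highest in mKO replicate 2. Among the WT libraries this sum was, like most of the 10 genes, lowest in WT replicate 3. It was 435, 1121 and 388 CPM in mKO replicates 1 to 3, against 733, 592 and 443 CPM in WT replicates 1 to 3, with overlap of the groups. Of those 7, 3 passed as higher and 2 as lower.

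Summed markers of macrophages, fibroblasts, tendon and endothelium did not overlap between groups, while those of satellite cells, Schwann cells and smooth muscle did. The part of these cell types in the results above was not tested. All 5 macrophage markers passed as higher, with a summed level of 433 to 727 CPM in mKO and 205 to 254 CPM in WT. Fibroblast markers summed to 2012 to 2261 CPM in mKO and 1578 to 1731 CPM in WT (2 of 5 higher), and tendon markers to 539 to 635 CPM in mKO and 309 to 407 CPM in WT (2 of 5 higher). All 5 endothelial markers passed as lower, summing to 139 to 153 CPM in mKO and 221 to 291 CPM in WT. Satellite cell markers summed to 25.3 to 28.0 CPM in mKO and 20.5 to 30.1 CPM in WT (1 of 5 higher and 1 lower), Schwann cell markers to 31.8 to 72.2 CPM in mKO and 43.1 to 50.0 CPM in WT (none of 5 passed), and smooth muscle markers to 101 to 114 CPM in mKO and 98.6 to 127 CPM in WT (1 of 5 higher and 1 lower). With unscaled library totals, 2 of 5 endothelial markers and 5 of 8 fibre genes passed as lower, 4 of 5 fibroblast, 3 of 5 tendon and 5 of 5 macrophage markers as higher, and 2 satellite cell, 1 Schwann cell and 1 smooth muscle marker as higher with none lower.

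Ankrd1, Csrp3 and Xirp1 are also heart genes, so heart markers were read with them. The 6 heart markers summed to 50.7 to 88.1 CPM in mKO and 10.5 to 29.3 CPM in WT, and 1 of the 4 that were tested passed as higher. That gene was Myl4, the atrial and embryonic light chain (58.7 ± 22.8 CPM in mKO and 5.66 ± 1.72 CPM in WT, SD, n = 3 each), and the higher sum in mKO comes from it. The other 3 tested had negative log2 differences that did not pass, and the median of the 4 was -0.38. Among them, Myh6, the main heart myosin gene, had 2.05, 22.8 and 0.567 CPM in mKO replicates 1 to 3, against 9.75, 21.7 and 4.50 CPM in WT replicates 1 to 3. Ryr2, the heart calcium release channel gene, averaged 0.665 ± 0.266 CPM in mKO and 0.836 ± 0.630 CPM in WT (SD, n = 3 each). The heart troponin gene Tnni3 averaged 0.610 ± 0.154 CPM in mKO and 0.817 ± 0.859 CPM in WT (SD, n = 3 each). Myl7 and Nppa did not pass the filter on low counts. Myl7, which defines atrial muscle, had 3 counts in mKO replicate 1 and 0 in every other library, an mKO mean of 0.0220 CPM. Nppa had 7, 4 and 2 counts in mKO replicates 1 to 3, against 0, 0 and 1 in WT replicates 1 to 3.

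Titin and its partners were mixed. Of 11 listed genes of the titin complex, 4 were higher and 4 lower, beside 18.2% and 18.9% of all genes tested. Their median log2 difference was 0.04. Smyd2, a methyltransferase that holds a chaperone at the N2A site, fell (35.2 ± 3.44 CPM in mKO and 132 ± 13.8 CPM in WT, SD, n = 3 each; log2 -1.91, SE 0.12, edgeR adjusted p = 4.67e-07). Capn3, the muscle calpain bound to N2A, fell (149 ± 2.25 CPM in mKO and 323 ± 6.39 CPM in WT; log2 -1.11, SE 0.10, edgeR adjusted p = 5.95e-06). Tcap, the cap of titin at the Z-disc, fell (log2 -0.94, SE 0.11, edgeR adjusted p = 2.84e-05), as did the ubiquitin ligase gene Trim63 (log2 -0.67, SE 0.12, edgeR adjusted p = 0.00110). The 4 that passed as higher were Cryab, Mypn, Nbr1 and Trim55 (log2 0.62, 0.46, 0.38 and 0.36).

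Titin itself did not pass: Ttn averaged 143911 ± 16609 CPM in mKO and 172820 ± 617 CPM in WT (SD, n = 3 each; log2 -0.26, SE 0.13, edgeR adjusted p = 0.126). Its groups did not overlap, and its sign turned with unscaled library totals (log2 0.20). With those totals the titin complex list had 6 genes higher and 3 lower.

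Of 10 listed partners of Xin and filamin C, 5 were higher and 2 lower, beside 18.2% and 18.9% of all genes tested. Their median log2 difference was 0.31. Since the list was chosen with earlier results known, no direction is read from these counts. Flnc, the muscle filamin that gathers with Xin at sarcomere lesions, rose (1434 ± 90.9 CPM in mKO and 394 ± 114 CPM in WT, SD, n = 3 each; log2 1.86, SE 0.18, edgeR adjusted p = 8.20e-06). Bag3, the cochaperone that clears damaged filamin, rose (131 ± 10.2 CPM in mKO and 54.2 ± 7.07 CPM in WT; log2 1.28, SE 0.12, edgeR adjusted p = 9.28e-06), as did its chaperone partner Hspb8 (log2 0.47, SE 0.12, edgeR adjusted p = 0.00778) and the cadherin gene Cdh2 (log2 0.82, SE 0.24, edgeR adjusted p = 0.0154). The remaining called genes were Enah, which was higher (log2 0.36), and Synpo2 and Ctnnb1, which were lower (log2 -0.38 and -0.31). Without mKO replicate 2 or without mKO replicate 3 the list had 4 calls in place of 7, and with unscaled library totals 8 were higher and none lower.

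**Figure D4:**
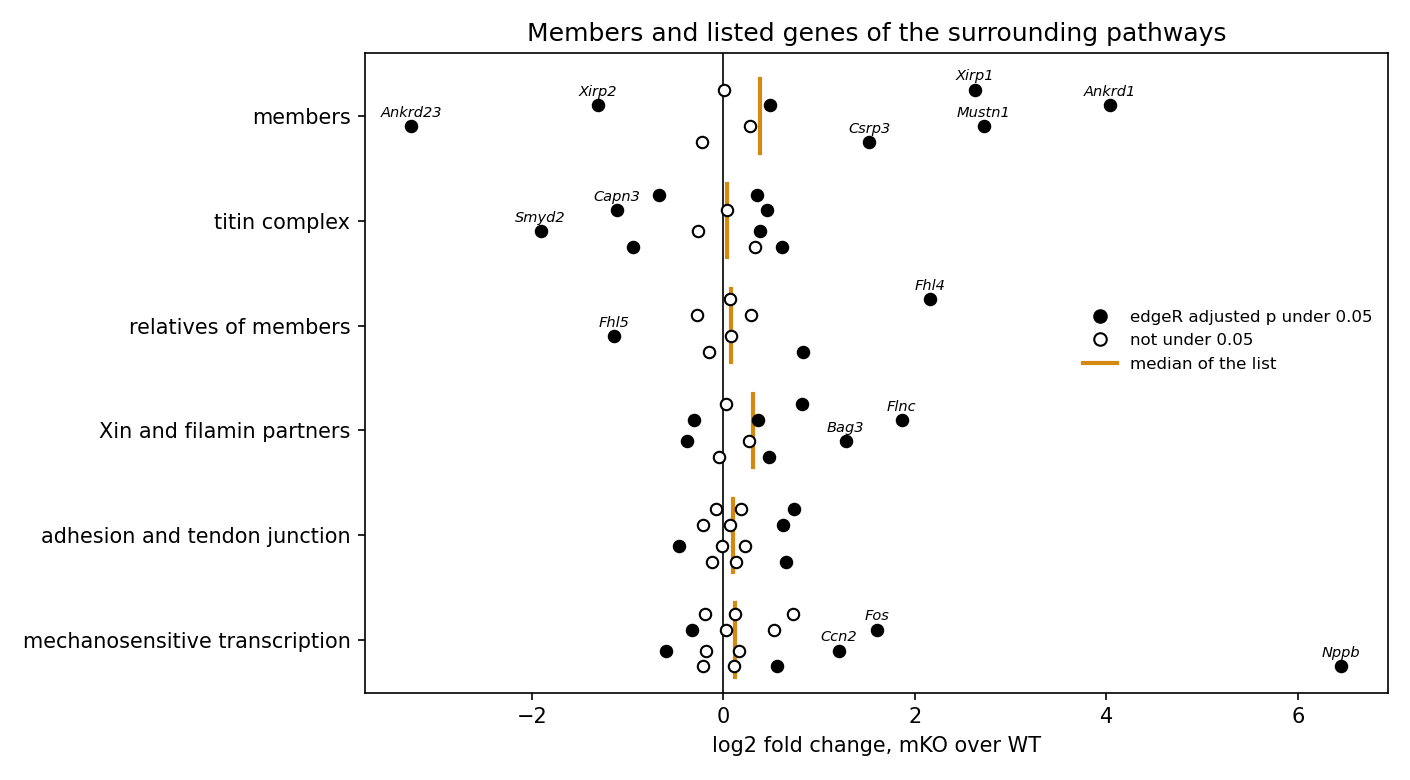
Log2 fold change, mKO over WT, of the 10 genes (top) and of the tested genes of 5 listed groups around them, with filled points for edgeR adjusted p under 0.05 and orange lines at the medians, which run from 0.04 for the titin complex to 0.38 for the 10 genes. The named points lie past 1 on the log2 scale; the value of Nppb rests on 1 count in WT and is no bound.

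Relatives of the 10 genes by family were lowly expressed apart from Neb. Of 8 listed, 2 were higher and 1 lower, beside 37.0% of all genes tested that passed. Their median log2 difference was 0.08. Csrp2, a LIM protein gene of developing and smooth muscle, rose (6.48 ± 1.30 CPM in mKO and 3.62 ± 0.341 CPM in WT, SD, n = 3 each; log2 0.84, SE 0.19, edgeR adjusted p = 0.00466), and the LIM-only gene Fhl4 rose (284 counts in mKO and 50 in WT over the group; log2 2.16, SE 0.47, edgeR adjusted p = 0.00315), with 35 of the WT counts in WT replicate 3. Fhl5, a LIM-only gene, fell (log2 -1.14, SE 0.25, edgeR adjusted p = 0.00307). Values for the relatives that did not pass were log2 -0.15 for Csrp1, 0.29 for Fhl2, 0.07 for Nebl, 0.08 for Lasp1 and -0.27 for Neb, the nebulin gene, at 21121 ± 1730 CPM in mKO and 25463 ± 448 CPM in WT (SD, n = 3 each). With unscaled library totals 4 were higher and 1 lower.

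Of 12 listed adhesion and myotendinous junction genes, 3 were higher and 1 lower, beside 37.0% of all genes tested that passed. Their median log2 difference was 0.10. Talin 1 (Tln1, 156 ± 13.3 CPM in mKO and 93.7 ± 11.8 CPM in WT, SD, n = 3 each), the focal adhesion gene Zyx and the muscle laminin receptor gene Itga7 rose, with log2 values of 0.74, 0.66 and 0.62 (SE 0.12, 0.13 and 0.13, edgeR adjusted p = 0.000561, 0.00167 and 0.00198). Itgb1, the integrin partner of Itga7, fell (log2 -0.46, SE 0.11, edgeR adjusted p = 0.00669), but stood at 0.01 with unscaled library totals, under which 10 were higher and none lower. The tendon markers Thbs4 and Tnmd passed as higher in mKO as well (log2 0.97 and 0.44), and their part in this list was not tested.

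Mechanosensitive transcription genes were mixed. Of 15 listed regulators and targets of the YAP, TEAD and serum response factor pathways, 4 were higher and 2 lower. Over all genes tested 37.0% passed, and the median log2 difference of the 15 was 0.12. Nppb, a natriuretic peptide gene induced by stretch in heart, had 153 counts over the mKO libraries and 1 over the WT libraries, a ratio of 118 (exact 95% counting interval 20.9 to 4707; edgeR adjusted p = 6.39e-05). Ccn2, a matrix signalling gene and YAP target, rose (64.2 ± 11.4 CPM in mKO and 27.8 ± 7.25 CPM in WT, SD, n = 3 each; log2 1.21, SE 0.18, edgeR adjusted p = 0.000264), as did the coactivator gene Yap1 (log2 0.56, SE 0.15, edgeR adjusted p = 0.0120). Srf, which encodes serum response factor, fell (23.7, 23.2 and 25.2 CPM in mKO replicates 1 to 3, against 37.2, 34.8 and 37.4 CPM in WT replicates 1 to 3; log2 -0.60, SE 0.10, edgeR adjusted p = 0.000642). Without WT replicate 3 the list had 3 calls in place of 6, and with unscaled library totals 10 were higher and none lower.

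Genes with library profiles most like those of the ankyrin repeat genes were sought among 11943 genes by the root mean square difference in log2 CPM over the 6 libraries, after subtraction of the WT mean. For Ankrd1 these were Tdrd9 (0.32), Sox11 (0.39) and the chemokine gene Ccl8 (0.40), and for Ankrd23 they were Pld5 (0.24), Padi2 (0.36) and the antisense gene Irx3os (0.37), which cannot be told apart from its sense partner if counting ignored strand. For Ankrd2 they were Pigt (0.05) and the proteasome subunit genes Psmb5 (0.08) and Psmb9 (0.09), which did not pass (edgeR adjusted p = 0.0571, 0.0648 and 0.141). Some matches rest on few counts. In WT replicates 1 to 3, Tdrd9 had 6, 7 and 4 counts and Sox11 had 8, 2 and 1. In mKO replicates 1 to 3, Irx3os had 12, 8 and 6 counts. Ccl8 stood at 11.8 ± 1.62 CPM in mKO and 0.863 ± 0.165 CPM in WT, and Padi2 at 4.57 ± 0.986 CPM in mKO and 32.0 ± 5.79 CPM in WT (SD, n = 3 each). The values rank likeness in these libraries and were not tested. Since the WT mean was subtracted, near values largely reflect near fold changes.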

How the data were processed

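RNA of 6 gastrocnemius libraries was sequenced after Trizol extraction and NEBNext Ultra preparation, per the labels' protocols. The values deposited are whole-number counts of reads for each gene, summed over listed exons per the file headers. Trimmomatic 0.36, STAR 2.5.2b, featureCounts of Subread 1.5.2 and the GRCm38 build are named in the submitters' processing notes. Settings for strand, shared exons and multi-mapping reads are not stated in these sources.

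Symbols came from an Ensembl table (48970 of 49315 genes matched), coordinates from the count tables, and start-site windows from RefSeq (GRCm38.p6). Groups follow the titles. All genes were fitted together in edgeR 4.0.16 (R 4.3.3) by quasi-likelihood, with TMM factors, the default filter by group and Benjamini-Hochberg adjustment at 0.05, with group as the only term. SE is the log2 fold change divided by the root of the F statistic. CPM and RPKM were computed from counts, scaled library size and exon length. Intervals cover counting error only. Replicates differed beyond sampling noise (chi-square per degree of freedom 20.9 to 57.7), and the code was tested on simulated counts.

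The 10 genes and all lists were chosen with earlier results of these data known. Genes were named by rule: the 10, Hnrnpu, Ttn, all family relatives, up to 4 called genes of each other list by lowest p, and 3 genes most like each ankyrin repeat gene with a mean of at least 1 CPM and no predicted symbol. Marker genes, Gm42417, neighbouring genes and further genes of the titin, Xin and mechanosensitive lists were named outside it. Alternatives were DESeq2 1.42.0, limma-voom (limma 3.58.1), other scaling and filters, a fit without mitochondrially encoded genes and Ttn, the replicate number as a block, and each library left out.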

Additional observations from a re-analysis of the deposited data

How the results depend on the processing

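The alternatives refit the libraries on which the 10 genes were picked, so their values describe the spread over settings and do not show stability; 6 to 8 of the 10 genes were called when a library was left out. Leaving out a library gave log2 values of -0.14 to 0.24 for Fhl1, which lies near 0. With unscaled library totals 9283 genes passed in place of 6166 (87.9% of them higher in place of 49.0%). Under these totals 9 of the 10 genes passed, and Fhl3 did not (log2 0.24). Hnrnpu passed at 0.27, as did 5 family relatives, 10 adhesion genes and 10 mechanosensitive genes. Such totals leave out the scaling that centres the bulk of genes. Leaving out a library gave 4 to 7 calls for Xin and filamin partners and 3 to 6 for mechanosensitive genes; the cause was not tested. With only unshared exon bases, chosen after seeing the data, 12 of 20 positions in the order by RPKM were as before, since the length of Ankrd23 changes most. Deviations of same-numbered libraries from their group mean correlated at -0.03, -0.03 and 0.05, and those of differently numbered ones at -0.07 to 0.08. So few libraries cannot show whether replicate numbers pair the samples. A replicate block gave 5519 genes and 7 of the 10. With 3 libraries a group, differences the size of those of Nrap and Fhl3 rest on single libraries.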

Other observations

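The nearest protein-coding gene on each side of the 10 genes was read out as well, chosen by position with the results known. Of 20 such genes 17 were tested, and 4 were higher and 4 lower (47.1% passed, against 37.0% of all genes). Beside Ankrd23, Ankrd39 lies 624 bases away and Cnnm3 1951 bases away. Ankrd39, an ankyrin repeat gene outside the titin-binding family, averaged 5.87 ± 0.904 CPM in mKO and 6.06 ± 0.504 CPM in WT (SD, n = 3 each; log2 -0.04, edgeR adjusted p = 0.866), and Cnnm3 had a log2 difference of 0.27 (edgeR adjusted p = 0.306), and neither passed beside the 9.56-fold lower Ankrd23. Beside Ankrd1, Rpp30, a subunit of ribonuclease P, did not pass (log2 0.21, edgeR adjusted p = 0.274), and Pcgf5, 259223 bases away, fell (log2 -0.68, edgeR adjusted p = 0.000805). Next to Csrp3, E2f8, a cell cycle transcription factor gene, rose (1.46 ± 0.150 CPM in mKO and 0.192 ± 0.0291 CPM in WT; log2 2.90, edgeR adjusted p = 8.68e-05). Next to Xirp2, B3galt1, a galactosyltransferase gene, fell with it (2.59 ± 0.104 CPM in mKO and 6.66 ± 0.747 CPM in WT; log2 -1.36, edgeR adjusted p = 8.22e-05).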
